A study of Arabidopsis thaliana with 108 samples.

Results

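In Arabidopsis, 585 short stretches of the genome were bound by FLAG-tagged TRB1, TRB2 and TRB3, carried H3K27me3 in Col-0 seedlings, and had no FLAG-JMJ14 peak and no Col-0 H3K4me3 peak. They were taken from 20625 TRB1 consensus regions. Such a region had peaks of 2 or more of the 4 FLAG-TRB1 lists over it, was joined to the next across gaps of up to 100 bp, and was at least 100 bp long. A region was kept where it overlapped a TRB2 and a TRB3 consensus region made in the same way, no peak of either FLAG-JMJ14 list, a H3K27me3 peak in both Col-0 lists and a H3K4me3 peak in neither. The 585 regions, called triple-bound H3K27me3 regions here, were therefore selected on the FLAG-TRB, FLAG-JMJ14 and Col-0 lists, and their state in those lists is a description and not a result. Of 9229 TRB1 regions that overlapped both other TRBs, 573 had the same Col-0 marks with a FLAG-JMJ14 peak (JMJ14-bound regions), and 3846 had Col-0 H3K4me3 in place of H3K27me3 and no JMJ14 (H3K4me3 triple-bound regions). A further 45 TRB1 regions had H3K27me3, no JMJ14 and no TRB2 or TRB3 consensus region (TRB1-only regions), and 31462 windows of 400 bp had the Col-0 marks without a peak of any FLAG list (unbound windows). The name TRB1-only refers to consensus regions and not to absence of TRB2 or TRB3 peaks. Of the 45, 35 had a peak in FLAG-TRB2 replicate 4 and 32 in FLAG-TRB3 replicate 4. Only 5 had one in FLAG-TRB1 replicate 1 and 5 in replicate 2.

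The TELOMERE REPEAT BINDING proteins TRB1, TRB2 and TRB3 are single-Myb-domain proteins that recognise telomere-like sequence, the telobox, at telomeres and within the chromosome arms. They interact with subunits of Polycomb repressive complex 2, the enzyme complex that places H3K27me3, a mark that covers silent developmental genes in broad stretches. JMJ14 is a demethylase of H3K4me3, the mark found at the start of active genes, and NAC-domain proteins are known to bring it to its sites.

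All plants were Columbia-0. FLAG-TRB1, FLAG-TRB2 and FLAG-TRB3 (4 lists each) and FLAG-JMJ14 (2 lists) were transgenes driven by their own promoters, the TRB transgenes in the corresponding mutants, and were profiled in floral tissue of 5 to 6 weeks (flower buds in the methods). H3K27me3 was profiled in seedlings of 2 to 3 weeks from Col-0 and the triple mutant trb1/2/3 (2 lists each), and H3K4me3 in the same genotypes (2 lists each) and in jmj14-1 (1 list). Peak lists do not show whether TRB or JMJ14 protein was missing in the mutants, so these labels could not be checked. TRB1-ZF, TRB2-ZF and TRB3-ZF plants carried a TRB fused to an artificial zinc finger that binds the FWA promoter, in the late-flowering fwa epiallele background, and were compared with fwa. The labels give floral tissue of 5 to 6 weeks for these histone libraries and the methods give leaves of 4 to 5 weeks. Myc-JMJ14 was profiled in leaves of 3 to 4 weeks, in Col-0 and in TRB-ZF plants (5 lists). FLAG binding and histone marks thus came from different tissues, so a region bound in flowers is read beside a mark measured in seedlings.

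Before the results, 3 properties of the lists are given. The H3K27me3 lists of TRB1-ZF replicate 2 and TRB2-ZF replicate 2 were identical in all 11610 peaks and were counted as 1 list. The FLAG-TRB lists held 3279 to 22509 peaks, the H3K27me3 lists 10198 to 14323 and the H3K4me3 lists 16030 to 17764, and since they hold no reads the sequencing depth is unknown. Of 7 floral organ genes (AP1, AP3, PI, AG, SEP1, SEP2 and SEP3), 7 had a H3K4me3 peak in fwa replicates 1 and 3, in TRB1-ZF replicates 1 and 3 and in replicate 1 of TRB2-ZF and TRB3-ZF, but 0 did in fwa replicate 2 and 1, SEP1, in replicate 2 of each TRB-ZF line. The H3K4me3 lists labelled floral therefore differed by replicate number at the defining floral genes, and this is given again where it touches a value.

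The sequences at the most strongly bound triple-bound H3K27me3 regions are shown because they carry the telomere repeat that TRB proteins recognise. Strength was the percentile rank of the authors' fold enrichment within each list, averaged over the 12 FLAG-TRB lists with 0 where there was no peak. Of the 10 highest regions, 8 contained TTAGGG or its reverse complement CCCTAA, which is in capitals below. The windows are from the RefSeq copy of TAIR10.1, plus strand, 5′ to 3′, and those within an untranslated region are 30 bases long.
AT2G45135 (chr2:18609232-18609261): catagctcgaaaCCCTAActccccacttcc
AT1G08110 and AT1G08120 (chr1:2538512-2538571): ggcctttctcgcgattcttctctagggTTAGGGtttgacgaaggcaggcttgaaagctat
MNP (chr3:18909884-18909943): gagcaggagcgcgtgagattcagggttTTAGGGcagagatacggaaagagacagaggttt
GNC (chr5:22992122-22992181): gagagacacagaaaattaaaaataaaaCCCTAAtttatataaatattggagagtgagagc
No gene, near RAD54 (chr3:6651555-6651614): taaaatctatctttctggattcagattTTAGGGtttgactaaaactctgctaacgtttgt
No gene, near AT1G69680 (chr1:26207754-26207813): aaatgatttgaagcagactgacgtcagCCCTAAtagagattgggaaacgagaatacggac
SEP1 (chr5:5153936-5153965): aaaagaaattaaCCCTAAtttcaagaacaa
AT1G76230 (chr1:28600605-28600664): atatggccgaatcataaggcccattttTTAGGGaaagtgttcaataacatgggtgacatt

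These 10 regions ranked between 91.1 and 95.9 on average and had a peak in all 12 lists. The highest lay in the 5′ UTR of AT2G45135, a RING/U-box protein, with a fold of 3.10 to 4.34 in the TRB1 lists, 5.32 to 8.15 in the TRB2 lists and 4.35 to 7.23 in the TRB3 lists. MNP, also known as HAN, encodes a GATA factor that marks boundaries in the embryo and flower, and the centre of its region lay 1019 bp from the gene. GNC, a GATA factor that promotes greening, was bound with the highest fold of the 10, the region centre being 604 bp from the gene, up to 10.5 in FLAG-TRB2 replicate 2 and 9.57 in FLAG-TRB3 replicate 2. SEP1, a MADS-box gene of floral organ identity, was bound at its 5′ UTR with a mean rank of 91.6. The other named genes of the 10 were AT4G34800, a SAUR-like auxin-responsive gene, and the uncharacterised AT1G76230, and 3 of the 10 lay at no gene. Over all 585 regions the mean rank ran from 6.88 to 95.9 with a median of 50.7. A longer stretch of the GNC promoter (chr5:22992002-22992301, plus strand) shows the setting of such a match, with its only CCCTAA in capitals.
GNC promoter: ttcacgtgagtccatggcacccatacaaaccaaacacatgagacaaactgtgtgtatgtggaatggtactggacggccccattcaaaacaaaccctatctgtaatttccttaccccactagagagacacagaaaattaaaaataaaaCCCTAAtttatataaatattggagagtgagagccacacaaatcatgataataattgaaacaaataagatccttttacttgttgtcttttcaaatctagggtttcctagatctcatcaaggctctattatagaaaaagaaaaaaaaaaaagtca

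The triple-bound H3K27me3 regions were 132 to 1311 bp wide with a median of 328 bp, and chromosomes 1 to 5 held 163, 67, 113, 77 and 165 of them. Their binding differed between the 3 TRBs in how many lists carried it. A peak was present in all 4 TRB2 lists at 402 regions and in all 4 TRB3 lists at 295, but in all 4 TRB1 lists at only 148, and 346 regions rested on 2 TRB1 lists. In FLAG-TRB1 replicates 1 to 4, 35.7%, 30.8%, 99.7% and 100% of the regions had a peak. The corresponding shares were 69.6%, 88.9%, 99.7% and 99.8% in FLAG-TRB2 and 51.5%, 89.2%, 90.1% and 100% in FLAG-TRB3. FLAG-TRB1 replicates 3 and 4, whose lists were the longer ones, thus carried most of the TRB1 calls, and without one or the other the same rule found 229 or 227 regions. In total, 108 regions had a peak in all 12 lists.

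Where a peak was present, its rank within the list was middling for TRB1 and high for TRB2 and TRB3. The median percentile of the fold was 49.5, 48.1, 48.0 and 43.7 in the 4 TRB1 lists. It was 67.5, 77.5, 80.7 and 86.4 in the TRB2 lists and 65.0, 72.4, 73.0 and 87.8 in the TRB3 lists. At H3K4me3 triple-bound regions the order was the other way round, with 70.7, 69.7, 84.1 and 83.4 for TRB1, 52.2, 53.3, 68.0 and 78.2 for TRB2 and 48.8, 53.7, 52.1 and 72.4 for TRB3. JMJ14-bound regions had 66.0, 61.2, 72.1 and 63.5 for TRB1, 66.2, 70.85, 79.0 and 81.2 for TRB2 and 60.9, 69.9, 69.2 and 84.4 for TRB3. High TRB2 and TRB3 ranks were thus shared with JMJ14-bound regions, while the TRB1 ranks were lower than theirs. Since the same lists selected all of these sets, these ranks are given without a test.

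**Figure D1:**
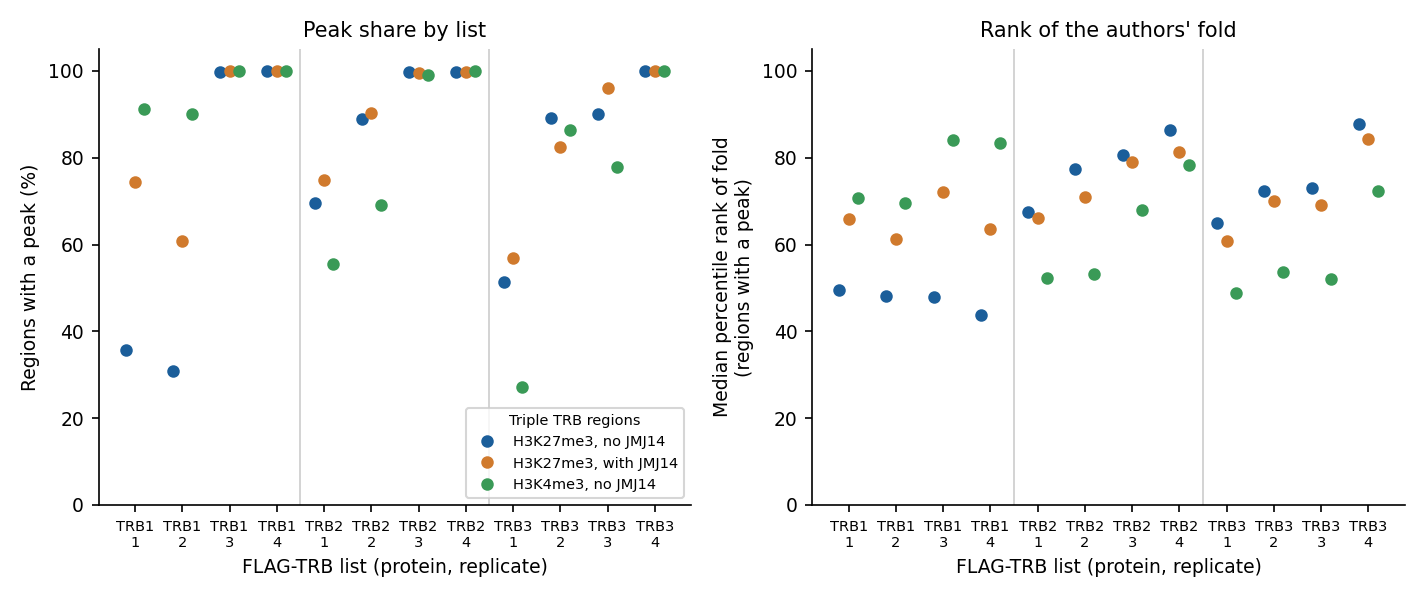
Share of triple TRB regions with a peak (left, %) and median percentile rank of the authors' fold where a peak was present (right) in each of the 12 FLAG-TRB lists, for regions with H3K27me3 and no JMJ14 (585), with H3K27me3 and JMJ14 (573) and with H3K4me3 and no JMJ14 (3846). The H3K27me3 regions without JMJ14 had the lowest ranks in the TRB1 lists (43.7 to 49.5) and the highest in the TRB2 and TRB3 lists (65.0 to 87.8). Those with JMJ14 came close in the TRB2 and TRB3 lists (60.9 to 84.4).

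The selection thresholds were close for some regions. The narrowest region was 132 bp, 2 regions were under 150 bp, and 0 stretches shorter than 100 bp met the rest of the rule. Just inside the TRB3 threshold were 115 regions with TRB3 peaks in exactly 2 lists. Just outside it were 75 regions with TRB1 and TRB2, the same marks and a TRB3 peak in exactly 1 list, and 6 had no TRB3 peak. The nearest FLAG-JMJ14 peak lay at a median of 6.55 kb, and at 37 regions (6.32%) it was within 500 bp. A Col-0 H3K4me3 peak lay within 500 bp of 69 regions.

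The place of the triple-bound H3K27me3 regions in the annotation was mixed, with many far from genes. Of their centres, 194 (33.2%) lay in a promoter, taken as 1 kb upstream, and 61 (10.4%) in a 5′ UTR. Coding sequence held 61 (10.4%), introns 41, 3′ UTRs 18, the 300 bp downstream of genes 25 and other exons 3. The remaining 182 (31.1%, 95% Wilson interval 27.5% to 35.0%) were distal, compared with 8.03% of the JMJ14-bound regions and 1.92% of the H3K4me3 triple-bound regions. The largest share of JMJ14-bound regions lay in coding sequence (43.3%), and H3K4me3 triple-bound regions lay mostly in 5′ UTRs (43.6%) and promoters (40.9%). Of the 182 distal regions, 147 overlapped no annotated gene of any kind, 22 a lncRNA and 6 a pseudogene. Their centres lay at a median of 1642 bp from the nearest protein-coding gene and at most at 5809 bp, so few were in large gene deserts. These intervals cover counting of regions only.

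The telomere repeat TTAGGG, on either strand, lay in 259 of the 585 triple-bound H3K27me3 regions (44.3%, Wilson interval 40.3% to 48.3%), compared with 34.9% of all TRB1 consensus regions. It lay in 69.3% of the JMJ14-bound regions, in 1 of the 45 TRB1-only regions (2.22%) and in 10.7% of the unbound windows. JMJ14-bound regions were wider (median 520 bp against 328 bp) and had 1.65 matches per kb, against 1.49 in the triple-bound H3K27me3 regions. The share was lower than in H3K4me3 triple-bound regions (63.2%), by -18.9 percentage points (95% interval -23.2 to -14.6, two-sided Fisher's exact test, adjusted p = 5.93e-17). That difference moved with region width, since the H3K4me3 regions had a median of 639 bp. Per kb of sequence the order was the other way, with 1.49 matches in the triple-bound H3K27me3 regions and 1.35 in the H3K4me3 regions. Within the central 300 bp of each region the shares were 39.3% and 44.3% (difference -4.94 points, two-sided Fisher's exact test, adjusted p = 0.0506). Compared with TRB1-only regions the share was higher by 42.1 points (31.9 to 46.5, Fisher's exact test, adjusted p = 2.16e-09), a call that was lost without FLAG-TRB1 replicate 3 (37.7 points, Fisher's exact test, adjusted p = 0.106) or replicate 4 (35.5 points, adjusted p = 0.192). The 8 comparisons between classes of regions were adjusted together. Regions share libraries and neighbours are not independent, so these p-values describe these lists.

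Most of the regions with the repeat held it once. There was 1 match in 196 regions, 2 in 52, 3 in 9, 4 in 1 and 5 in 1. Peak summits lay close to it, at a median of 24 to 44.5 bp over the 12 FLAG-TRB lists, and 54.3% to 76.2% of summits with a match in their region were within 50 bp. The extended telobox AAACCCTA lay in 32.0% of the regions, compared with 24.7% of all TRB1 regions. The share was higher in the other triple-bound sets, which were wider. It was 42.11% in all TRB1 regions that overlapped both other TRBs, 51.3% in JMJ14-bound and 55.95% in H3K4me3 triple-bound regions. Matches per kb were 0.974 in the triple-bound H3K27me3 regions and 0.862, 1.125 and 1.046 in those sets. The motif bound by NAC proteins, CTTG and CAAG separated by 5 bases on either strand, was rare. It lay in 7 of the 585 regions (1.2%), in 27.2% of the JMJ14-bound regions and in 4.43% of all TRB1 regions. Matches are letters in a window and were not tested as binding sites.

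**Figure D2:**
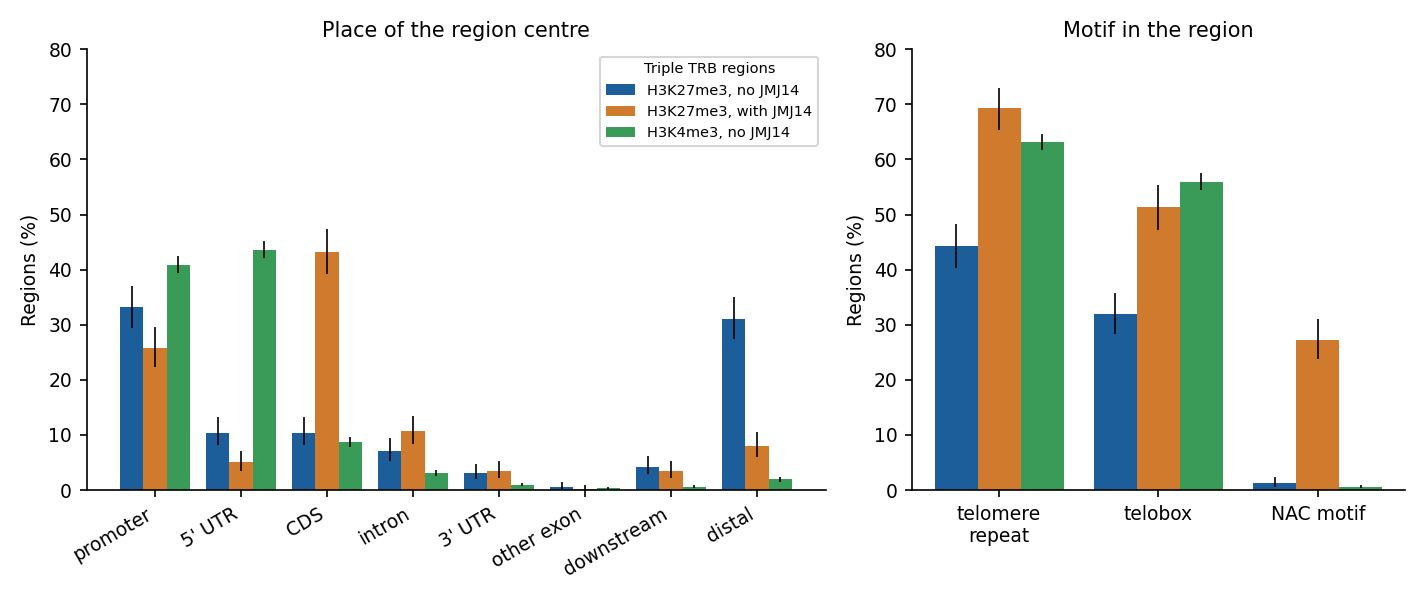
Share of regions (%) by the place of the region centre (left) and with a motif in the region (right), for the 3 classes of triple TRB regions, with 95% Wilson intervals as lines. Regions with H3K27me3 and no JMJ14 stood apart by distal centres (31.1%), and the NAC motif was highest of the 3 classes in the JMJ14-bound one (27.2%).

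The triple-bound H3K27me3 regions touched many developmental regulators. In total, 413 regions lay in the body or 1 kb upstream of 455 protein-coding genes, which is 1.66% of 27444 genes, and 28 genes had 2 or more regions. By the product names of the annotation, 64 of the 455 genes (14.1%) belonged to 11 transcription factor families, compared with 3.65% of all protein-coding genes and 6.64% of the 5319 genes with H3K27me3 and no H3K4me3 in Col-0. The 455 genes were not filtered on H3K4me3 over the whole gene, so they are not a subset of the 5319. FLC, WOX1, FIL and YAB5, for example, are among the 64 and had a Col-0 H3K4me3 peak in the gene body. The shares of the H3K27me3 genes given below are therefore from an unlike set. The family words were chosen after values had been seen, so these shares are a description. The MADS-box family had 11 (2.42%, 0.164% of all genes and 0.376% of the H3K27me3 genes): AG, AP1, AP3, SEP1, SEP2, SEP3, SHP1, SHP2, FLC, TT16 and AT2G41470. AGL42, another MADS-box gene, has a region too but no family word in its product name. The homeodomain family had 16 (3.52%, 0.959% of the H3K27me3 genes), among them GL2, ANL2, HDG1 and HDG3 of the epidermis, WOX1, WOX3, WOX8 and WOX12, the meristem gene RPL, and KAN, KAN2 and KAN3, whose MYB-like GARP products specify abaxial organ identity and are named homeodomain-like in the annotation. The bHLH family had 11 (2.42%, 0.808% of the H3K27me3 genes), including MUTE of the stomatal lineage, GL3 of trichomes, HEC1 of the gynoecium and HFR1 of light signalling. C2H2 zinc fingers had 5 (1.10%, 0.771% of the H3K27me3 genes), with MGP and JKD, which pattern the root ground tissue, and JAG, which promotes lateral organ growth. MYB genes had 4 (0.879%, 1.28% of the H3K27me3 genes) and NAC genes 3 (0.659%, 0.677%), so these families were not above the H3K27me3 genes. F-box genes had 26 (5.71%, 5.90% of the H3K27me3 genes) and genes with kinase in their product name 5 (1.10%, 3.12%). Genes with ribosomal protein in their product name had 8 (1.76%, 1.25% of all genes and 0.320% of the H3K27me3 genes). A share above the H3K27me3 genes was thus not limited to transcription factor families.

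Over 12 lists of 111 developmental and control genes, 19 genes (17.1%) had a triple-bound H3K27me3 region, beside 1.66% of all protein-coding genes. Of the 111 genes, 85 carried H3K27me3 in both Col-0 lists, with or without H3K4me3. Of all 27444 genes, 5319 had H3K27me3 and no H3K4me3, a stricter criterion, so these counts cannot be compared directly. Each region had to carry H3K27me3, so the contrast with all genes follows in part from the selection. Genes with a region were most frequent among the floral organ MADS-box genes, with 8 of 15: AP1, which specifies the floral meristem and sepals, AP3 of petals and stamens, AG of stamens and carpels, the cofactors SEP1, SEP2 and SEP3, and SHP1 and SHP2 of the valve margin. PI, SEP4, STK, FUL, CAL, AGL6 and AGL13 had 0, although all 15 carried H3K27me3 in both Col-0 lists. WUSCHEL-related homeobox genes had 4 of 15, with 3 regions at WOX1, 2 at WOX12 and 1 each at WOX3 and WOX8. Organ boundary and polarity genes had 3 of 12 (AS2, FIL and YAB5), floral repressors and integrators 2 of 16 (FLC and LFY), AINTEGUMENTA and PLETHORA genes 1 of 8 (AIL1) and stomatal bHLH genes 1 of 3 (MUTE). None was found in class I KNOX (4 genes), seed maturation (8), class III HD-ZIP (5), PIN (8), YUCCA (11) or broadly expressed genes (6). The JMJ14-bound regions lay at 8 genes of the same lists, namely SHP1, which thus had a region of each kind, SOC1, WOX6, PLT1, PIN6, PIN8, YUC5 and YUC9.

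At AP1 and AG, and at the organ polarity genes YAB5 and FIL, the fold was higher in each TRB2 and TRB3 list than in each TRB1 list. The AP1 promoter region (chr1:25986144-25986810) had a fold of 2.17 to 3.19 in the TRB1 lists, 4.80 to 9.42 in the TRB2 lists and 3.72 to 7.57 in the TRB3 lists. The YAB5 intron region (chr2:11305147-11305723, with 3 TTAGGG matches) had 2.01 to 2.37, 5.20 to 9.32 and 4.72 to 6.35. At FIL, a YABBY gene of abaxial identity, the region had no peak in FLAG-TRB1 replicate 2 and folds of 2.18 to 2.58 in the other TRB1 lists, against 4.81 to 7.66 in the TRB2 lists. The AG region lay in an intron (chr4:10386385-10386808), had no peak in FLAG-TRB1 replicate 2, and had 4.43 to 5.22 in the TRB2 lists. At SEP1, SEP2, SEP3, AP3 and SHP1 the folds of TRB1 and TRB3 overlapped. At SEP3, for example, replicate 3 had 3.32 in TRB1, 1.56 in TRB2 and 1.5 in TRB3. At SHP2, FLAG-TRB1 replicates 1 and 2 and FLAG-TRB3 replicate 1 had no peak. The folds in the other lists were 1.89 and 2.15 for TRB1 and 2.41 to 3.34 for TRB3. Folds were set by the authors' caller per list, so they are compared here only as written.

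In trb1/2/3, most triple-bound H3K27me3 regions still had H3K27me3. In bulk tissue, a mark in fewer cells and a weaker mark in each cell cannot be told apart, and a peak list shows only whether the caller passed a site. A peak remained at 73.2% and 68.0% of them in the trb1/2/3 replicates, and the bases under a peak went from 66.9% and 70.2% in Col-0 to 45.7% and 42.2%. Both trb1/2/3 lists had a peak at 376 regions (64.3%), 1 list at 74 and neither at 135 (23.1%, Wilson interval 19.8% to 26.7%), compared with 25.8% for all 1421 TRB1 regions with the same Col-0 marks. The share without a peak was 26.9% in JMJ14-bound regions (difference -3.80 points, interval -8.77 to 1.19, two-sided Fisher's exact test, adjusted p = 0.205) and 28.9% in TRB1-only regions (-5.81 points, -20.7 to 5.91, adjusted p = 0.366). Neither difference passed the test. That to JMJ14-bound regions turned to 3.56 and 3.19 points without FLAG-TRB1 replicate 3 or 4 and to 0.20 without trb1/2/3 replicate 1. That to TRB1-only regions passed the test without FLAG-TRB2 replicate 4 (-9.79 points, Fisher's exact test, adjusted p = 0.0479) or Col-0 H3K27me3 replicate 1 (-14.5 points, adjusted p = 0.0251). In unbound windows the share was 13.6%, so the triple-bound H3K27me3 regions lost it more often by 9.48 points (6.23 to 13.1, two-sided Fisher's exact test, adjusted p = 2.56e-09). Since Col-0 was fixed by the selection, a loss could be seen there and a gain could not, in every class alike. With 1 of the trb1/2/3 lists alone the share without a peak was 32.0% (replicate 2) or 26.8% (replicate 1). Regions and windows share the trb1/2/3 libraries and neighbours are not independent. The p-values and intervals of these comparisons therefore describe these lists and not the spread between plants.

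The loss moved with how broad the Col-0 H3K27me3 stretch was. A stretch was a run under a peak in both Col-0 lists, and those holding regions had a median of 2799 bp (2374 bp for unbound windows). In stretches under 1 kb, 54 of 113 triple-bound H3K27me3 regions (47.8%) had no peak in either trb1/2/3 list, compared with 28.4% of unbound windows. In stretches of 1 to 3 kb it was 52 of 198 (26.3%, windows 12.8%), and in stretches of 3 kb or longer it was 29 of 274 (10.6%, windows 5.92%). Position within the stretch moved with it too, as 198 of 583 region centres (34.0%) lay outside the shared stretch, against 18.4% of windows, and 276 regions were wholly covered in both Col-0 lists. Among wholly covered regions the loss was 8.70% (24 of 276) and 5.67% in windows, a difference of 3.03 points that no longer passed the test (Fisher's exact test, adjusted p = 0.0727). Among wholly covered regions in stretches of 3 kb or longer it was 4.08% and 3.44% (0.64 points, Fisher's exact test, adjusted p = 0.975). The part of stretch width and edges in the difference from windows was not tested further.

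In trb1/2/3, the share of regions under H3K27me3 was lower around the bound site than at 600 or 700 bp to either side, and it fell again beyond about 1 kb. At the region centre, 70.4% and 74.9% of the triple-bound H3K27me3 regions were under a peak in Col-0 and 47.7% and 46.5% in trb1/2/3. At 600 bp on the lower coordinate side the shares were 73.0% and 75.9% in Col-0 and 59.7% and 55.7% in trb1/2/3. At 700 bp on the higher side they were 69.7% and 72.7% and then 58.3% and 56.4%. Both trb1/2/3 lists thus dipped at the centre, by more than the replicates differed, while the Col-0 lists stayed nearly level. Each region had to overlap a H3K27me3 peak in both Col-0 lists, so the Col-0 level near the centre is partly set by the selection. It is therefore not a free contrast to the dip.

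**Figure D3:**
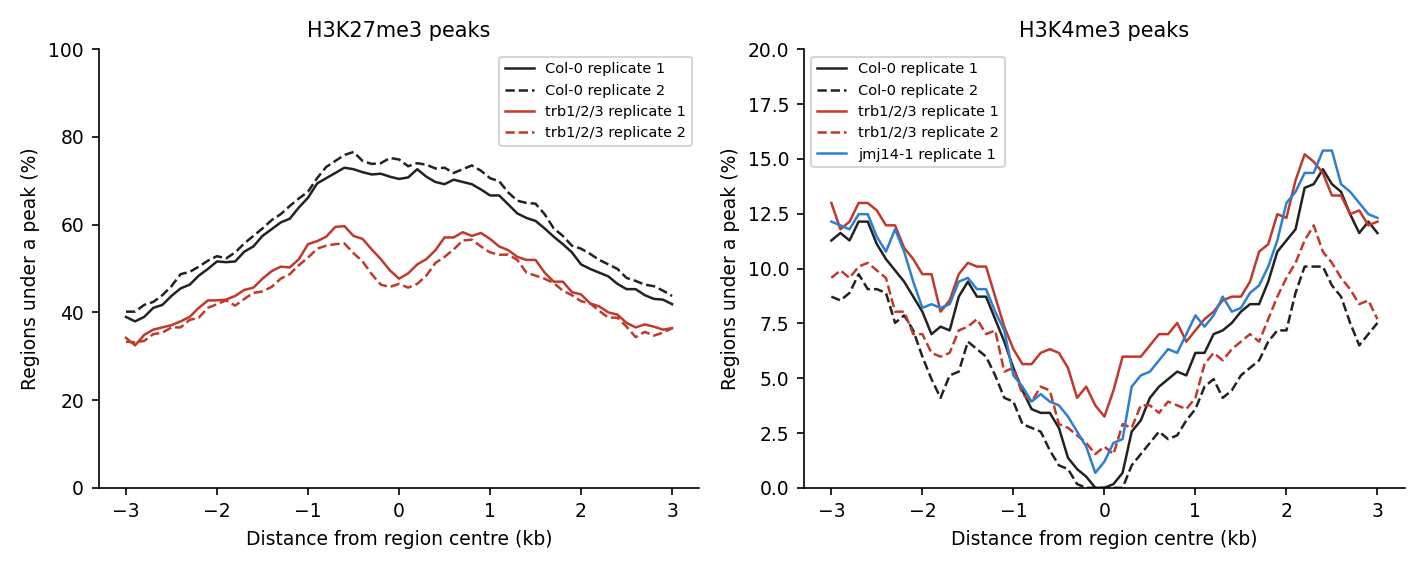
Share of the 585 regions (%) under a H3K27me3 peak (left) and a H3K4me3 peak (right) every 100 bp up to 3 kb from the region centre, one line per list (solid replicate 1, dashed replicate 2). In trb1/2/3 the H3K27me3 share was 47.7% and 46.5% at the centre and 59.7% and 55.7% at 600 bp on the lower side. By selection, H3K4me3 at the centre is 0 in Col-0, and each region overlaps a Col-0 H3K27me3 peak, which partly sets the Col-0 level there.

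The loss is given by place and by gene as a description, with no test between places. It was seen at 50 of 194 promoter regions (25.8%), 47 of 182 distal (25.8%), 10 of 25 downstream (40.0%), 8 of 61 in 5′ UTRs (13.1%) and 9 of 61 in coding sequence (14.8%). It was 26.6% with TTAGGG and 20.2% without. Among the strongest 10 regions, the one between AT1G08110 and AT1G08120 (chr1:2537847-2539122) lost its peak in both trb1/2/3 lists, from 221 and 169 bp in Col-0. At GNC, H3K27me3 covered all 387 bp of the region in both Col-0 lists and 147 and 0 bp in trb1/2/3. At the region near RAD54 it went from 408 bp in both lists to 26 and 106 bp. At HDG1 (chr3:22633860-22634698) it went from 288 and 218 bp to 0 in both lists. The region at MNP stayed wholly covered, 407 of 407 bp in all 4 lists, as did those at FIL (390 bp), JAG (223 bp) and AIL1 (329 bp). Coverage of named regulators in trb1/2/3 thus ran from none, as at HDG1, to whole, as at MNP. Others lay between, such as the SHP1 region, with 590 and 607 bp in Col-0 and 144 and 200 bp in trb1/2/3.

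Several regions could share 1 stretch. The 527 stretches that held a triple-bound H3K27me3 region had 1 in 481 cases, 2 in 40, 3 in 2 and 4 in 4. A stretch of 6124 bp at WOX1 (chr3:6158558-6164681), a gene of leaf blade outgrowth, held 4 regions and lost none. The others with 4 lay at AT1G03710 and AT1G03720, a cystatin-like gene and a cysteine proteinase gene, over a cluster of ribonuclease H-like genes from AT3G12420 to AT3G12470, and at GulLO3, an arabinonolactone oxidase-like gene, where 2 of the 4 lost H3K27me3.

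H3K4me3 appeared at few triple-bound H3K27me3 regions in trb1/2/3. A peak was present at 9.74% and 4.44% of them in replicates 1 and 2, and at 25 (4.27%, Wilson interval 2.91% to 6.23%) in both, compared with 5.07% for all TRB1 regions with the same Col-0 marks. The share was 6.98% in JMJ14-bound regions (difference -2.71 points, interval -5.46 to -0.04, two-sided Fisher's exact test, adjusted p = 0.0879) and 0 of 45 TRB1-only regions, which allows a share of up to 6.67% (4.27 points, -3.71 to 6.23, adjusted p = 0.281). In unbound windows it was 0.995%, lower by 3.28 points than in the triple-bound H3K27me3 regions (1.91 to 5.24, Fisher's exact test, adjusted p = 8.81e-09). Windows were not matched to the regions by place. Among the regions the share was 13.1% in 5′ UTRs, 3.61% in promoters and 1.10% at distal ones. The part of place in the difference was not tested. As for the loss, these p-values describe these lists. The share of triple-bound H3K27me3 regions with H3K4me3 depended on trb1/2/3 replicate 2, without which it was 9.74%. The difference from JMJ14-bound regions passed the test without FLAG-TRB3 replicate 3 (-3.88 points, Fisher's exact test, adjusted p = 0.0208) or replicate 4 (-3.95 points, adjusted p = 0.0286), or without Col-0 H3K27me3 replicate 1 (-3.31 points, adjusted p = 0.0158). That to TRB1-only regions turned to -1.89 points without Col-0 H3K4me3 replicate 1.

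Of the 25 regions with H3K4me3 in both trb1/2/3 lists, 8 lay in 5′ UTRs (13.1% of the 61 there) and 7 in promoters (3.61% of 194). Introns held 4 (9.76% of 41) and distal places 2 of 182. The promoter share was below the 4.27% of all 585 regions. At the SEP1 5′ UTR region, H3K4me3 covered 740 and 755 of 990 bp and H3K27me3 still covered 575 and 564 bp. At AGL42, a MADS-box gene that delays floral senescence, H3K4me3 covered 271 and 174 of 341 bp. The cyclin gene CYCB1;5 had 313 and 230 of 313 bp, JAZ10, a repressor of jasmonate signalling, 130 and 36 of 382 bp, and LRP1 of the lateral root primordium 71 and 113 of 548 bp. The peptide gene CLE17 had 18 and 25 bp. Of the 25, 12 kept H3K27me3 in both lists, against 376 of all 585 regions (64.3%). H3K4me3 in fwa replicates 1 and 3 was present at 12 of the 25 and at 52 of all 585.

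Both changes together, no H3K27me3 and H3K4me3 in both trb1/2/3 lists, were found at 7 regions (1.2%). The longest H3K4me3 was 255 and 211 bp at chr1:18566283-18566671, whose centre lies 208 bp downstream of AT1G50120 and which also had 237 bp in jmj14-1. The promoter of AT3G09680, a ribosomal protein of the S12/S23 family, had 179 and 211 bp, and the 3′ end of AT1G02620, a Ras-related GTP-binding gene, 176 and 143 bp. SOB3, an AT-hook protein that restrains hypocotyl growth, had 214 and 113 of 276 bp at its 5′ UTR, where H3K27me3 had covered all 276 bp in Col-0. A distal region (chr3:7372239-7372785) had 141 and 46 bp, AT4G30970 39 and 63 bp, and AT2G47890, a B-box zinc finger gene, 56 and 1 bp, so that the last call rests on 1 bp. Of these 7 regions, 3 contain the repeat, and 1 window of each is shown with a match in capitals. A second match of SOB3 ends its window in lower case.
SOB3 (chr1:28705284-28705313): tctcctctcttgCCCTAAagcgagttaggg
No gene (chr3:7372393-7372452): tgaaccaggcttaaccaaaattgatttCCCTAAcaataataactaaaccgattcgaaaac
AT2G47890 (chr2:19607703-19607762): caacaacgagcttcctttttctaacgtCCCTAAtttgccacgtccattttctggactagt

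In jmj14-1, 24 of the triple-bound H3K27me3 regions (4.10%, Wilson interval 2.77% to 6.03%) had a H3K4me3 peak, compared with 6.69% of all TRB1 regions with the same Col-0 marks, and 6 of them also had one in both trb1/2/3 lists. With 1 jmj14-1 library no test over samples was possible. In JMJ14-bound regions the share was 9.25% and in unbound windows 0.502%. The longest coverage was at AT5G53830, a VQ motif gene, where H3K4me3 covered all 380 bp of the region in jmj14-1 and 302 and 11 bp in trb1/2/3. ABCG18, an ABC transporter, had 314 of 885 bp and AT5G60610, an F-box gene, 296 of 335 bp, both without H3K4me3 in trb1/2/3. TMO6, a Dof factor downstream of auxin response in the embryo, had 248 of 248 bp in jmj14-1 and in trb1/2/3 replicate 1 and 0 in replicate 2. H3K27me3 remained at these 4 regions in both trb1/2/3 lists. The share depended on Col-0 H3K4me3 replicate 1, without which the selection let in more regions and 11.3% had a jmj14-1 peak.

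**Figure D4:**
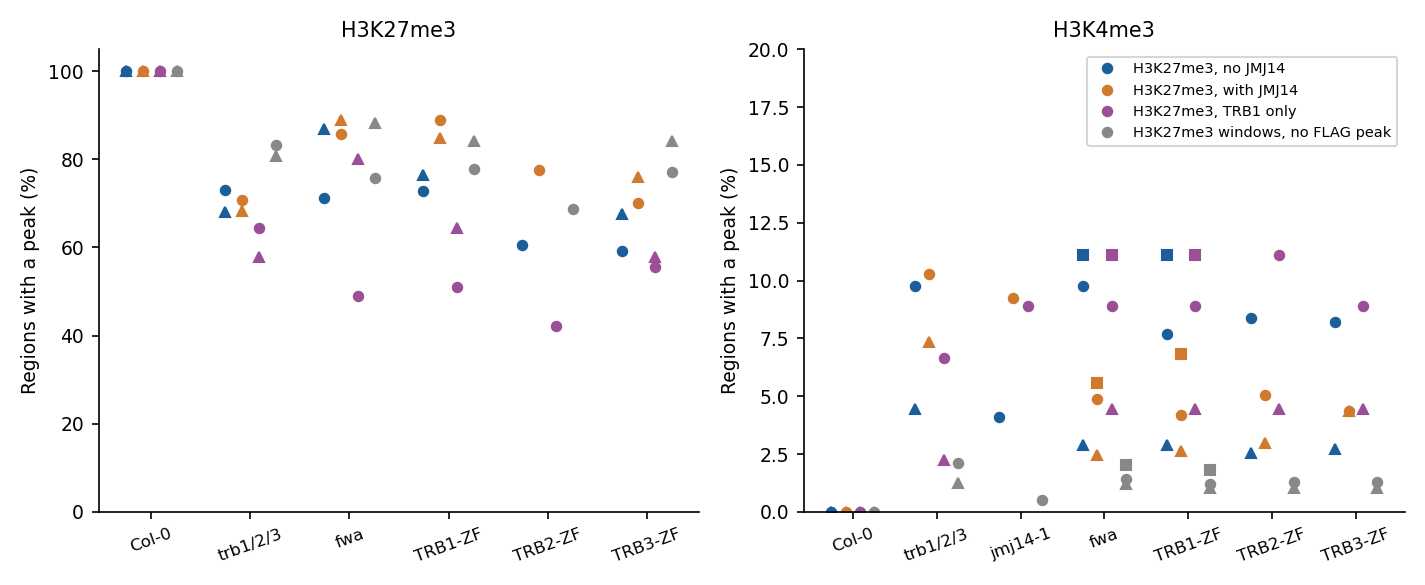
Share of regions (%) with a H3K27me3 peak (left) and a H3K4me3 peak (right, axis to 20%) in each list, for 3 classes of TRB regions and unbound windows, with circles, triangles and squares for replicates 1, 2 and 3. Col-0 is 100% and 0% by selection, the identical TRB2-ZF replicate 2 list of H3K27me3 is drawn once under TRB1-ZF, and the regions without JMJ14 (blue) had H3K27me3 at 73.2% and 68.0% in trb1/2/3.

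Over whole floral organ genes, H3K27me3 was largely kept in trb1/2/3 while H3K4me3 appeared at some. AP1 was under H3K27me3 over all 4056 bp in both Col-0 and both trb1/2/3 lists, and SEP3 over all 2588 bp. AG had 5684 and 5684 bp in Col-0 and 5520 and 5684 bp in trb1/2/3. SEP1 went from 2841 and 2912 bp to 2163 and 2136 bp, SHP1 from 3319 and 3298 bp to 2160 and 2151 bp and SHP2 from 3705 and 3880 bp to 2852 and 1661 bp, each lower than both Col-0 lists. H3K4me3 was 0 bp at all of these genes in Col-0 and jmj14-1. In trb1/2/3 replicates 1 and 2, SEP1 had 1076 and 953 bp of H3K4me3 and SEP3 1286 and 193 bp. AG had 1106 and 0 bp, SHP2 426 and 0 bp and SEP2 320 and 0 bp, while AP1, AP3 and SHP1 had 0 bp in both. Of the 7 floral marker genes, 5 had H3K4me3 in trb1/2/3 replicate 1 (3962 bp in sum) and 2 in replicate 2 (1146 bp), against 0 in both Col-0 lists, and the part of seedling stage in this was not tested. With 2 libraries against 2, an exact permutation test cannot give a p below 0.33.

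**Figure D5:**
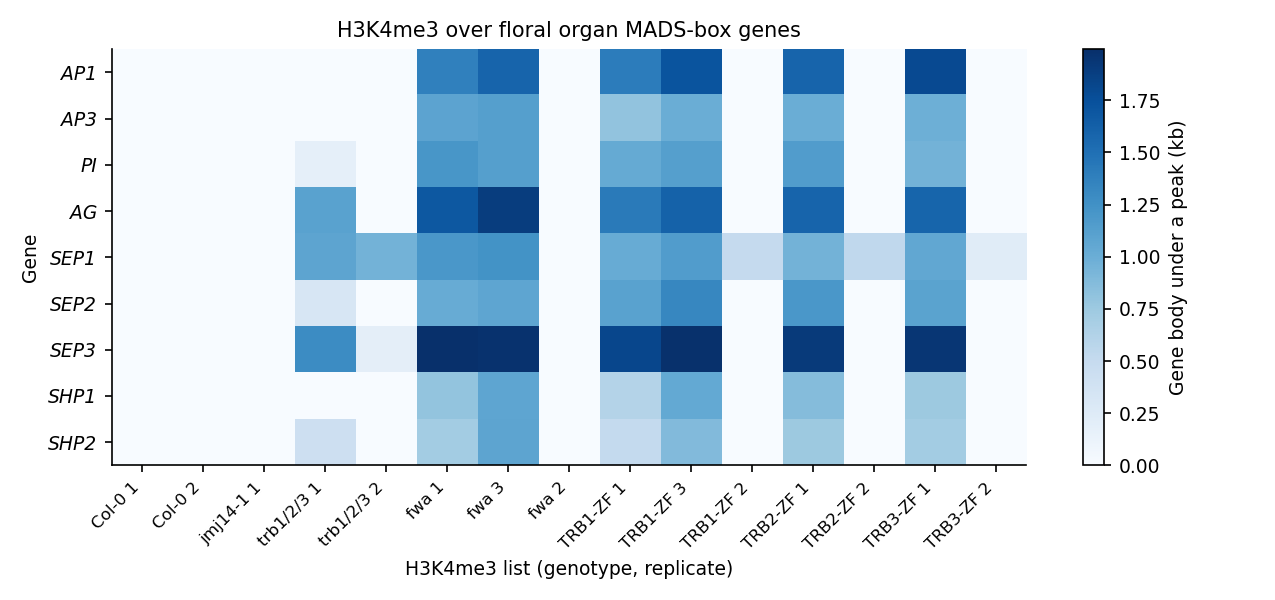
H3K4me3 coverage of the gene body (kb, colour) at 9 floral organ MADS-box genes in 15 H3K4me3 lists, named by genotype and replicate. All 9 genes are at 0 in Col-0 and jmj14-1, SEP1 and SEP3 are above 0 in both trb1/2/3 lists, and the fwa and TRB-ZF lists split by replicate number, with replicate 2 at 0 apart from SEP1 in the TRB-ZF lines.

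FLC, the repressor of flowering that is silenced by Polycomb after cold, had a region (chr5:3173173-3173525) that overlapped the end of the gene, with its centre 33 bp outside it. It was weakly bound, with a peak in 2 TRB1 lists, 3 TRB2 lists and 3 TRB3 lists and a mean rank of 24.9. H3K27me3 covered 241 and 121 bp of the region in Col-0 and 0 bp in both trb1/2/3 lists. Over the gene body, H3K27me3 went from 6067 and 6044 bp to 4700 and 4463 bp, and H3K4me3 from 490 and 412 bp to 1165 and 769 bp, with 368 bp in jmj14-1. The trb1/2/3 and Col-0 values did not overlap for either mark, with 2 lists each. At LFY, the meristem identity gene, the intron region had 51 and 198 bp of H3K27me3 in Col-0 and 103 and 122 bp in trb1/2/3, which overlapped.

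In fwa and the TRB-ZF lines, H3K27me3 at the triple-bound H3K27me3 regions varied between replicates as much as between lines. A peak was present at 71.3% and 87.0% of them in fwa, 72.8% and 76.4% in TRB1-ZF (the last being the list shared with TRB2-ZF), 60.5% in TRB2-ZF replicate 1 and 59.1% and 67.7% in TRB3-ZF. TRB3-ZF (63.4% ± 6.04, SD, n = 2) differed from fwa (79.2% ± 11.1, n = 2) by -15.7 points, with no overlap between the lists and an exact permutation p of 0.33, the smallest this design allows. JMJ14-bound regions differed by -14.4 points and unbound windows by -1.23 points between the same lists.

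H3K4me3 at the regions followed the replicate number in these lines. It was present at 9.74%, 2.91% and 11.1% of them in fwa replicates 1, 2 and 3, at 7.69%, 2.91% and 11.1% in TRB1-ZF, at 8.38% and 2.56% in TRB2-ZF and at 8.21% and 2.74% in TRB3-ZF. TRB3-ZF, which has no replicate 3, differed from fwa by -2.45 points (exact permutation p = 0.5, smallest possible 0.1), which is within the spread of the replicates. Between lists of the same number (replicate block) the difference was -0.855 points, and without TRB3-ZF replicate 2 it was 0.285 points. In total, 46 regions had H3K4me3 in fwa replicates 1 and 3 but not 2, among them SEP2, SEP3, AP1, AP3 and SHP2, and 17 had it in replicate 2, of which 6 also had it in the other two. Replicate 2 is the one without H3K4me3 at the floral marker genes, and the part of tissue in these values was not tested.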

How the data were processed

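The data were peak lists from ChIP-seq of FLAG-tagged TRB and JMJ14, Myc-JMJ14, H3K27me3 and H3K4me3. Per the methods, the authors mapped reads with Bowtie 2, kept unique matches without mismatches, removed duplicates, called peaks with MACS2 2.1.1, and left out FLAG sites also found in several Col-0 replicates. The submitters' processing notes name Bowtie2 2.1.0 and SAMtools 1.9. The control of each call, and whether replicates were called apart, is not given in the sources used here. The deposited values used were each peak's fold enrichment, a ratio to background computed by the authors' caller, and its −log10 q-value from the same caller. Bisulfite files were not used.

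Lists were grouped by the labels, which were kept where names of the Myc lists differed from them. The regions and gene lists were chosen with earlier results of these data known. A mark was present where a peak overlapped a region by at least 1 base, on Chr1 to Chr5. Coordinates, gene names and sequences came from the RefSeq annotation of TAIR10.1, and 0 peaks lay beyond its chromosome ends. Classes of regions were compared by Fisher's exact test (two-sided) with Newcombe 95% intervals and Benjamini-Hochberg adjustment over 8 comparisons, and libraries by exact permutation tests. Where replicates were separate plants is not stated in the labels, so their spread may be technical. Named genes were those of the 12 lists, of the 10 highest regions by mean rank, of up to 10 regions with both changes in trb1/2/3 and the longest H3K4me3, and of the 5 longest in jmj14-1. Other named genes and the transcription factor families were chosen after their values were seen. Interval code was tested on simulated lists with known answers. Python 3.11.15, numpy 2.4.6, scipy 1.17.1 and matplotlib 3.10.9 were used.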

Additional observations from a re-analysis of the deposited data

Results flagged for a closer look

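Myc-JMJ14 lists, which the comparisons above do not use, held a few peaks in the 585 triple-bound H3K27me3 regions where the Myc-JMJ14 control without a TRB-ZF held 0, which allows a share of up to 0.513%. That control list held 296 peaks, against 1032 in TRB1-ZF replicate 2 and 1011 in TRB3-ZF. It also had a peak at 0 of 573 JMJ14-bound regions and at 0.238% of all triple TRB regions. Its 0 at the 585 regions therefore cannot show that the TRB-ZF peaks were gained. In TRB1-ZF replicate 2, 5 of 585 regions (0.855%) had a peak, and in TRB3-ZF 5 of 585 (0.855%), while TRB1-ZF replicate 1 had 3 and TRB2-ZF 0. The regions at AT1G08110, AT3G05700 and AT3G28291 were shared by the 3 lists that had any. In the same lists, TRB1-ZF replicate 2 and TRB3-ZF had a peak at 4.00% and 5.35% of all triple TRB regions and at 9.42% and 14.5% of the JMJ14-bound regions, so the shares at the triple-bound H3K27me3 regions were lower than these. These differences were not tested.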

How the results depend on the processing

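With a peak in every replicate of a TRB the rule found 101 regions, H3K27me3 was lost at 32.7%, jmj14-1 had H3K4me3 at 0.990%, and the loss differed from JMJ14-bound regions by 4.66 points, turning direction. With a −log10 q of at least 10 in every list there were 176 regions, a loss of 38.6% and a difference of 6.04 points. With 50% of a region required under a histone peak the loss was 29.0%, jmj14-1 had 1.93%, the loss differed from TRB1-only regions by 6.26 points, and the gain from JMJ14-bound regions by -3.44 points, which passed the test. With every FLAG-TRB list shortened to the length of the shortest there were 50 regions, a loss of 36%, 0 in jmj14-1, a loss difference of 8.46 points to JMJ14-bound regions, and a gain difference of 4.85 points to unbound windows, which no longer passed. The TRB1-only class then held 1 region, so its differences of 36 points (loss) and -42 points (TTAGGG) say little. With histone lists shortened alike, the loss difference to JMJ14-bound regions was -7.79 points and passed. Of the alternatives chosen after seeing the data, wholly covered regions gave a loss difference to windows of 3.03 points, wholly covered ones in stretches of 3 kb or longer 0.642, and the central 300 bp a TTAGGG difference to H3K4me3 regions of -4.94 points, and none passed. The cause was not tested.

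Leaving out each library in turn gave 227 to 691 regions, a loss of 21.8% to 32.0%, a gain of 3.76% to 9.74% and 3.945% to 11.3% in jmj14-1. Loss differences ran from -27.6 to -4.39 points (TRB1-only), -4.68 to 3.56 (JMJ14-bound) and 8.09 to 16.5 (windows). Gain differences ran from -1.89 to 4.685, -4.52 to -0.553 and 2.77 to 7.65 points. TTAGGG differences ran from -22.25 to -9.31 (H3K4me3 triple-bound) and 35.5 to 45.7 points (TRB1-only), and TRB3-ZF minus fwa from -23.6 to -7.86 (H3K27me3) and -5.185 to 0.285 points (H3K4me3). Loss and gain differences to windows passed the test in each of these settings. With the number as a replicate block, TRB3-ZF differed from fwa by -15.7 points in H3K27me3 and -0.855 in H3K4me3. Same-numbered lists deviated together over 20625 regions (correlation 0.258 and 0.583), but 2 pairs are too few to take the number as a pairing. Peak lists hold no reads, so a missing peak may be a weaker signal.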
